A study of Mus musculus with 12 samples.

Results

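Gene expression 72 h after transfection with siRNA was compared with that after transfection with a negative control in C2C12, a mouse myoblast cell line, on 6 of the 12 arrays of a study of the long noncoding RNA Meg3. The 3 arrays whose labels give the transfection as siRNA, which their titles call a MEG3 knockdown, were set against the 3 whose labels give it as negative control. The other 6 arrays carried cells transfected with the plasmid pcDNA3.1 or with pcDNA3.1-MEG3, and served here to estimate the spread and to place the levels of both groups. All were single-colour Agilent arrays of 1 design, hybridised with Cy3-labelled RNA from cells grown in high-glucose medium with serum, and the labels describe no switch to a differentiation medium. What the negative control consisted of, the sequence of the siRNA and whether replicates were separate cultures are not given in the sources used here, so the p-values reflect only how these samples varied, which may be technical variation. A probe was kept if it was well above background on all arrays of at least 1 of both groups, which left 26797 of 39429 probes and, with the brightest probe taken for each gene, 22347 genes.

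C2C12 myoblasts proliferate in serum. When mitogens are withdrawn they leave the cell cycle, switch on the transcription factor myogenin, fuse into multinucleate myotubes and build sarcomeres, the contractile units of muscle. Meg3 is a long noncoding RNA made from the maternally inherited chromosome at the imprinted Dlk1-Dio3 locus, and it has been linked to Polycomb repressive complex 2, which silences genes by methylating histone H3. An siRNA is a short double-stranded RNA that guides the Argonaute proteins to cut a matching transcript.

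A level below is the log2 of the background-subtracted signal minus the 75th percentile of its array, so 0 is the brightness that 75% of the array's probes do not pass. Replicates 1 and 3 of siRNA shared a slide position and differed by 0.179 times the noise between spots of 1 probe, as 2 scans of 1 hybridisation would, and were averaged into 1 sample. Replicates 1 and 3 of the negative control differed by 0.968 times that noise, while negative control replicate 2 differed from them by 2.54 and 2.44 times, so they were averaged too, leaving 2 samples a group. Signals at the 75th percentile were 1168 to 1271 on the siRNA arrays and 1220 to 2266 on the negative control arrays, and 62.0% to 68.6% and 69.5% to 74.7% of probes were well above background. The groups were hybridised on separate slides and scanned separately, so slide and transfection cannot be told apart. In bulk RNA, more cells of a kind and more RNA per cell cannot be told apart either.

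Meg3, the gene the siRNA was directed at, had 3 probes, and none of them was kept. The first gave levels of -6.79, -6.48 and -7.02 on the negative control arrays and -7.75, -6.88 and -7.74 on the siRNA arrays. It was well above background on negative control replicate 2 and on none of the other 5 arrays. The other 2 probes were not well above background on any of the 6 arrays. With 1 of 6 arrays above background, Meg3 was not tested, no fold change is given, and these data cannot check the knockdown.

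After siRNA, 350 genes rose and 188 fell (limma, Benjamini-Hochberg adjusted p under 0.05), which is 1.57% and 0.841% of the genes tested and 2.41% together. The median difference of all 22347 genes was 0.05 on the log2 scale, and 4006 genes had an unadjusted p under 0.05. Of the 538 genes called, 534 differed at least 2-fold. Both groups were well above background on all 6 arrays for 434 of the called genes, whose differences ran from -3.89, for a transcript without a gene symbol, to 7.30 for Alox5. For 42 genes that rose no negative control array was well above background, and for 23 genes that fell no siRNA array was, so that only a bound on their change can be given. The share of calls that were higher, 65.1%, was 46.0% with arrays centred on their medians, which moved the median of all genes by over 0.1 to -0.13.

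**Figure D1:**
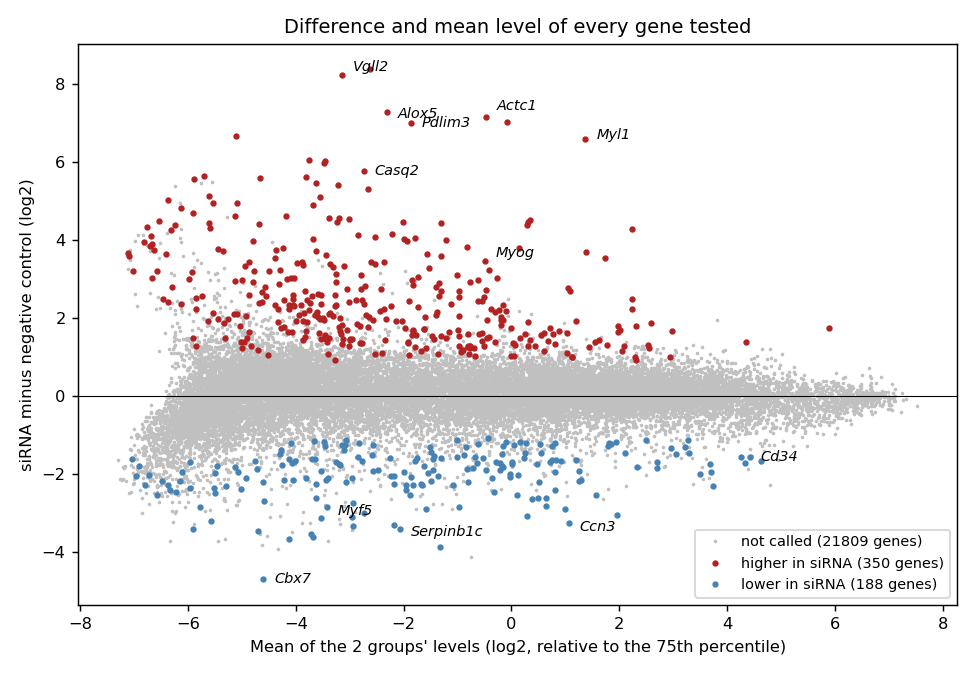
Difference between siRNA and negative control (log2, vertical axis) against the mean of both groups' levels (log2 relative to the array's 75th percentile, horizontal axis) for each of 22347 genes. Each point is a gene; red marks the 350 called genes that rose, blue the 188 that fell and grey those that did not pass the test. The most distant called points, among them Vgll2 and Cbx7, are fitted against a group that was not well above background on all its arrays. Called genes measured on all 6 arrays lie between -3.89 and 7.30.

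How many genes were called rested on the spread assumed for the negative control. Its samples varied most, with a relative SD of 2.27 against 1.15 for siRNA, 0.673 and 0.567 for the plasmid groups (pcDNA3.1, then pcDNA3.1-MEG3). With 1 spread shared by all groups 3465 genes were called, and with the samples of both groups alone 331, of which 222 were among the 538. Leaving out negative control replicate 2 left that group 1 sample, assumed to vary as the group did, and 9 genes called. Of the 106 called genes named by rule, Actc1, Casq2, Ctsc, Myh3, Myl1, Myl4, Pdlim3 and Ryr1 kept their call without it, and adjusted p for the other 98 lay between 0.0536 and 0.219. Without siRNA replicate 2, 392 genes were called and 72 of those 106 kept their call. With all 12 arrays and the hybridisation as a random block 899 genes were called, among them 408 of the 538. Of the 106 named genes 16 lost their call there, with adjusted p from 0.0534 to 0.691: Ago4, Bax, Cbx7, Cbx8, Clca3b, Igfbp4, Il1b, Lrrfip2, Nrip2, Pgam2, Polr1b, Serpine2, Tsc22d2, Uhrf1, Wdr19 and Zim1. With the samples of both groups alone 44 of the 106 lost their call (adjusted p from 0.0502 to 0.133). Myf5, Myod1, Cdh15, Chrna1, Cd34 and Bax were among them. With local background subtracted and 50 added to the signal 41 of the 106 lost it (adjusted p from 0.0519 to 0.786). None of the 538 genes changed direction when any 1 array was left out.

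The myogenic regulatory factors moved in opposite directions: 3 of 21 tested members of their list rose and 1 fell, with a list median of 0.45. Myog encodes myogenin, the factor that marks commitment to differentiation, and its levels were -2.37, -2.08 and -2.35 on the negative control arrays and 1.27, 1.24 and 1.24 on the siRNA arrays. All 3 siRNA arrays lay well above all 3 controls, and the difference was 3.47 ± 0.21 (log2 ± SE, adjusted p = 0.00339), or 11-fold. Myod1, the myoblast determination factor, had levels of -3.43, -2.33 and -3.44 on the negative control arrays and -0.54, -0.62 and -0.59 on the siRNA arrays. It rose by 2.29 ± 0.37 (adjusted p = 0.0457), with negative control replicate 2 the highest of its group. Vgll2, a cofactor of TEAD transcription factors found in skeletal muscle, had levels of -7.38, -7.29 and -7.10 on the negative control arrays and 0.94, 1.03 and 0.91 on the siRNA arrays, and was not well above background on any negative control array. It was at least 203-fold higher with siRNA (adjusted p = 0.00339). Myf5, a regulator of undifferentiated myoblasts, went the other way, with levels of -1.48, -2.52 and -1.44 on the negative control arrays and -4.83, -4.86 and -4.85 on the siRNA arrays. The siRNA arrays all lay below the controls, by -2.86 ± 0.34 (adjusted p = 0.0193), and the plasmid groups lay lower still, at means of -6.39 and -6.72. The adjusted p of Myod1 was 0.077 without siRNA replicate 2.

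The genes of myoblast fusion were higher where they passed the test, 4 of 25 tested, with a list median of 0.62. Mymx encodes myomixer, the micropeptide that opens fusion pores, and its levels were -1.48, -2.09 and -1.38 on the negative control arrays and 2.07, 2.04 and 2.02 on the siRNA arrays. Mymk encodes myomaker, the membrane protein that starts fusion, with levels of -3.01, -1.84 and -2.26 on the negative control arrays and 0.79, 0.61 and 0.73 on the siRNA arrays. The groups were well apart for both: Mymx rose by 3.80 ± 0.24 (adjusted p = 0.00368) and Mymk by 2.92 ± 0.34 (adjusted p = 0.0168). Cdh15, the adhesion protein M-cadherin, rose by 1.41 ± 0.20 (adjusted p = 0.0316), from -0.19, 0.13 and -0.21 to 1.46, 1.31 and 1.42. Cav3, the muscle caveolin, was at least 24.6-fold higher (adjusted p = 0.0109), with 1 of 3 negative control arrays well above background. Without negative control replicate 2 the adjusted p of these 4 lay between 0.0598 and 0.115, and without siRNA replicate 2 the adjusted p of Cdh15 was 0.063.

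Among thick filament and myosin genes 10 of 21 tested rose and 0 fell, and their median difference of 2.33 was the second highest of the 49 lists, against 0.05 for all genes. Myh3, embryonic myosin heavy chain, was at -2.90, -4.34 and -2.84 on the negative control arrays and 3.49, 3.42 and 3.43 on the siRNA arrays. It rose by 7.05 ± 0.38, or 132-fold (adjusted p = 0.00339), and a second probe gave 6.75. Myl1, the fast alkali light chain of myosin, was at -1.53, -2.28 and -1.62 on the negative control arrays and 4.79, 4.58 and 4.72 on the siRNA arrays. Its arrays fell into groups as far apart, with a difference of 6.59 ± 0.25 (adjusted p = 0.00209). Ttn, titin, the giant spring protein of the sarcomere, rose by 4.51 ± 0.28 (adjusted p = 0.00368), and Myl4, the embryonic light chain, by 4.30 ± 0.25 (adjusted p = 0.00339). Mybph, a myosin-binding protein, had a difference of 3.15 ± 0.62 that did not pass the test (adjusted p = 0.0725). Without negative control replicate 2, 3 of the 21 genes were called, and without siRNA replicate 2, 10.

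Thin filament genes had the highest median difference of any list, 3.08, and 12 of 22 tested rose while 0 fell. Actc1 encodes cardiac alpha-actin, the actin of embryonic muscle, and was at -3.26, -4.83 and -3.27 on the negative control arrays and 3.09 and 3.12 on siRNA replicates 2 and 3. All its spots were marked as outlying on siRNA replicate 1, which was left out for this gene. The difference was 7.15 ± 0.41, or 142-fold (adjusted p = 0.00339). Of the troponin subunits, which make contraction depend on calcium, Tnni2 rose by 4.48 ± 0.33 (adjusted p = 0.0067) from -1.57, -2.38 and -1.40 to 2.39, 2.71 and 2.37. Tnnc2, another of them, was at -1.47, -2.32 and -1.55 on the negative control arrays and 2.50, 2.48 and 2.49 on the siRNA arrays. Its difference was 4.40 ± 0.26 (adjusted p = 0.00339), and that of Tnnc1, the slow and cardiac troponin C, was 3.60 ± 0.20 (adjusted p = 0.00339). Neb, nebulin, which runs along the thin filament, rose by 4.44 ± 0.25 (adjusted p = 0.00339), while a second, dimmer probe gave -0.26. Acta1, the actin of adult skeletal muscle, was high on every array, at 2.93, 2.95 and 2.61 on the negative control arrays and 3.65, 3.53 and 3.62 on the siRNA arrays. Its difference of 0.72 ± 0.18 did not pass the test (adjusted p = 0.114). Without negative control replicate 2, 1 of the 22 genes was called, and without siRNA replicate 2, 11.

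**Figure D2:**
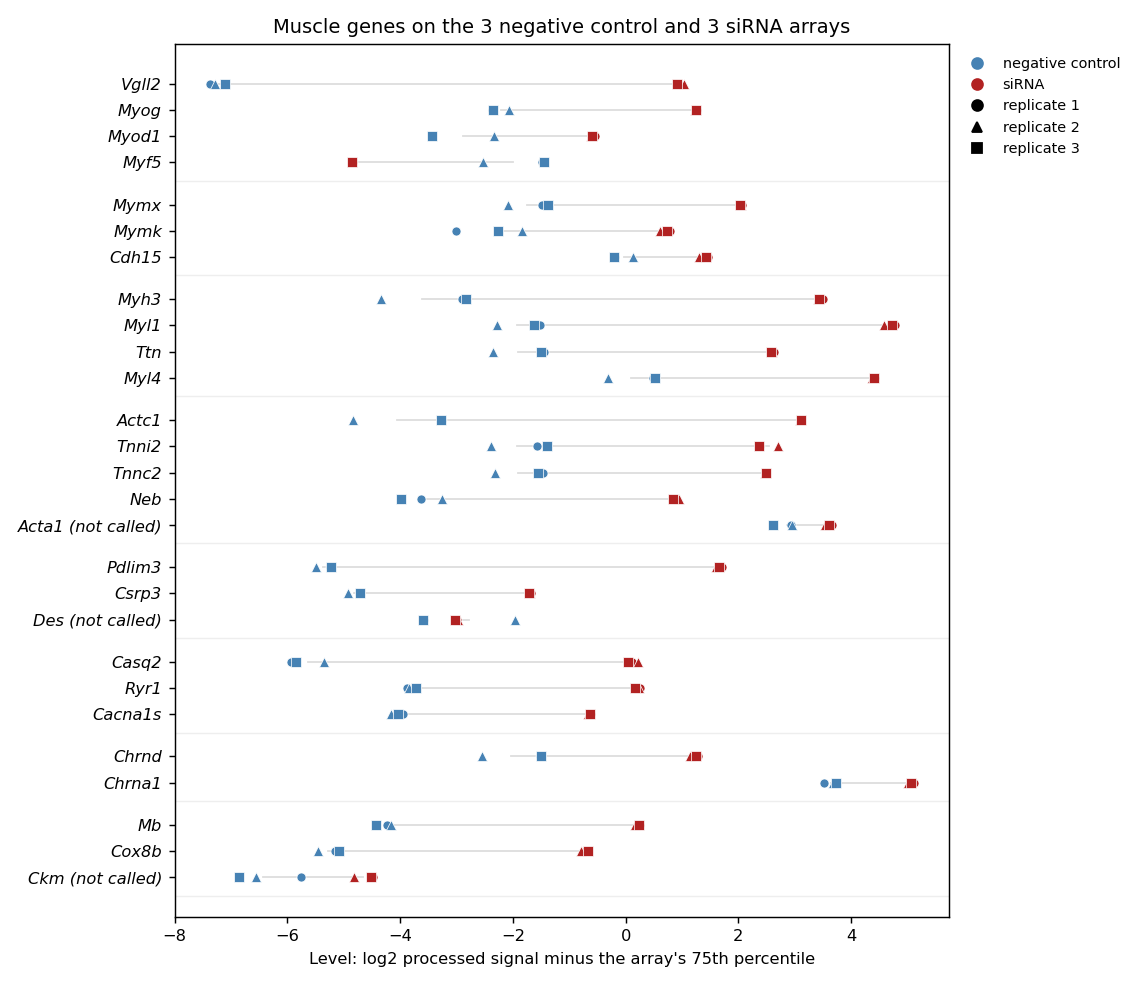
Levels (log2 signal relative to the array's 75th percentile) of 27 muscle genes on the 3 negative control (blue) and 3 siRNA (red) arrays; symbols are replicates and grey lines join the group means. Blocks from top to bottom are regulators, fusion, thick filament, thin filament, Z-disc, calcium release, acetylcholine receptor and energy supply; Myf5 was lower with siRNA, and Acta1, Des and Ckm did not pass the test.

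At the Z-disc, which anchors the thin filaments, and in the linked intermediate filaments and costameres, 9 of 34 tested genes rose and 0 fell, with a median of 0.61. Pdlim3, an actinin-binding protein of the Z-disc, was at -5.24, -5.50 and -5.23 on the negative control arrays and 1.71, 1.60 and 1.66 on the siRNA arrays. It rose by 7.01 ± 0.22, or 129-fold (adjusted p = 0.00209). Csrp3, muscle LIM protein, rose by 3.13 ± 0.17 (adjusted p = 0.00339). Des, desmin, the intermediate filament of muscle already made in myoblasts, was at -3.57, -1.96 and -3.59 on the negative control arrays and -2.99, -2.97 and -3.03 on the siRNA arrays, where the siRNA arrays lay within the range of the controls. Ankrd1, a stretch-responsive titin-binding protein, rose by 1.32 ± 0.20 (adjusted p = 0.0399). Its call was lost without siRNA replicate 2 (adjusted p = 0.0676); 6 of the 34 genes were called then, and 1 without negative control replicate 2.

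Genes for calcium release, which couples excitation of the membrane to contraction, rose in 6 of 25 cases and fell in 0, with a median of 0.67. Casq2, the calcium-binding protein calsequestrin of the sarcoplasmic reticulum, was at -5.94, -5.36 and -5.85 on the negative control arrays and 0.12, 0.22 and 0.04 on the siRNA arrays. The difference was 5.78 ± 0.24 (adjusted p = 0.00256), or 54.8-fold. Ryr1, the calcium release channel, was at -3.87, -3.84 and -3.72 on the negative control arrays and 0.26, 0.24 and 0.17 on the siRNA arrays. Arrays of a group lay close together, and it rose by 4.05 ± 0.16 (adjusted p = 0.00209). Srl, sarcalumenin, rose by 3.81 ± 0.21 (adjusted p = 0.00339). Cacna1s, the voltage sensor of the T-tubule, rose by 3.44 ± 0.30 (adjusted p = 0.0102) on its brightest probe and gave -0.70 on another. Without negative control replicate 2, 2 of the 25 genes were called, and without siRNA replicate 2, 4.

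At the neuromuscular synapse 2 of 19 tested genes rose and 0 fell. Chrnd, the delta subunit of the acetylcholine receptor, was at -1.53, -2.55 and -1.51 on the negative control arrays and 1.28, 1.15 and 1.25 on the siRNA arrays. It rose by 3.24 ± 0.34 (adjusted p = 0.014). The alpha subunit Chrna1 was bright in both groups, at 3.52, 3.68 and 3.73 on the negative control arrays and 5.11, 5.01 and 5.07 on the siRNA arrays, and rose by 1.40 ± 0.19 (adjusted p = 0.0267). The differences of Chrng, the gamma subunit, and of Musk, the receptor kinase that clusters the receptors, were 0.56 ± 0.45 and 0.10 ± 0.18, and neither passed the test (adjusted p = 0.618 and adjusted p = 0.869). The adjusted p of Chrna1 was 0.063 without siRNA replicate 2 and 0.134 without negative control replicate 2, and that of Chrnd was 0.0985 without the latter.

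In the energy supply of muscle 5 of 27 tested genes rose and 0 fell, with a median of 0.29. Mb, myoglobin, which stores oxygen, was at -4.24, -4.16 and -4.43 on the negative control arrays and 0.26, 0.17 and 0.24 on the siRNA arrays. It rose by 4.45 ± 0.20 (adjusted p = 0.00297). Cox8b, a muscle form of a cytochrome oxidase subunit, rose by 4.54 ± 0.28 (adjusted p = 0.00368), and Pygm, muscle glycogen phosphorylase, by 1.83 ± 0.19 (adjusted p = 0.0135). Pgam2, the muscle phosphoglycerate mutase, rose by 1.45 ± 0.17 (adjusted p = 0.0193), and its adjusted p was 0.059 without siRNA replicate 2. Ckm, muscle creatine kinase, a late differentiation gene, was at -5.75, -6.56 and -6.86 on the negative control arrays and -4.48, -4.82 and -4.52 on the siRNA arrays. The siRNA arrays were all above the controls, of which 2 were well above background, and the difference of 1.77 ± 0.39 did not pass the test (adjusted p = 0.0917). The mitochondrial Ckmt2 was well above background on all siRNA arrays and no control. Its difference of 3.72 ± 2.88 did not pass the test either (adjusted p = 0.598). Its means were at least 3.6-fold apart, a bound that takes no account of the spread between samples.

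Since muscle genes rose together, the sequence before their transcription starts was searched for 2 motifs bound by factors whose genes or cofactors were among them. An E-box, bound by MyoD and myogenin, was counted on both strands as CAGCTG or as CAGGTG with its reverse complement CACCTG, and an MCAT element, bound by TEAD factors, as CATTCC with its reverse complement GGAATG. In the 250 bases before the first start listed for a gene by RefSeq (mouse build GRCm38.p6), an E-box was present for 27.4% of 27025 genes and for 25.3% of the 12385 tested genes that had an entry. Of the genes that rose 33.1% of 236 had one, and of those that fell 26.8% of 71. Of the genes of the 7 muscle lists that rose (regulators, fusion, both filaments, Z-disc, calcium release and synapse), 16 of 31 with an entry, or 51.6%, had an E-box. Among all tested members of those lists, called or not, the share was 43.6% of 110. MCAT elements were present for 12.6% of all genes, 11.4% of those that rose, 25.8% of the muscle list genes that rose and 20.9% of all tested members of those lists. These letters are a description of sequence, not of binding. The promoters of Pdlim3, Tnnt2 (cardiac troponin T), Chrna1 and Ankrd1 are printed because they had the most matches among the muscle list genes that rose, with the matches in capitals and the start site following the last base. Tnnt2 rose by 3.71 ± 0.26 (adjusted p = 0.00575) and was chosen after its values were seen.
Pdlim3 (chr8:45885237-45885486, plus strand): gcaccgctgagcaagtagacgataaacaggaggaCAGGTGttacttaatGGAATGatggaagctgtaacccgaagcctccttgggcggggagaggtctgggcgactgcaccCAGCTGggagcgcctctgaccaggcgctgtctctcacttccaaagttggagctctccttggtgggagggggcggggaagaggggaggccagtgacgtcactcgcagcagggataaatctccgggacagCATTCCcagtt
Tnnt2 (chr1:135836084-135836333, plus strand): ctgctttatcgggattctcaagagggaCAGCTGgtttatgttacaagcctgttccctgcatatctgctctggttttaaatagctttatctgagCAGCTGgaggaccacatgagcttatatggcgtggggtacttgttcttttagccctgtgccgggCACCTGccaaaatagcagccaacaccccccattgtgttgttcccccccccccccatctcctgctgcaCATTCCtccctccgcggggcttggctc
Chrna1 (chr2:73580339-73580588, minus strand): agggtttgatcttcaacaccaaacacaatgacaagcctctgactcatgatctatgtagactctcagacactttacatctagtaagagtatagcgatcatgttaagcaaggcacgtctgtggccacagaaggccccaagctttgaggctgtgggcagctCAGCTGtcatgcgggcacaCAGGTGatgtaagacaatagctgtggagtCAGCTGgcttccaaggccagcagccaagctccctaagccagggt
Ankrd1 (chr19:36119845-36120094, minus strand): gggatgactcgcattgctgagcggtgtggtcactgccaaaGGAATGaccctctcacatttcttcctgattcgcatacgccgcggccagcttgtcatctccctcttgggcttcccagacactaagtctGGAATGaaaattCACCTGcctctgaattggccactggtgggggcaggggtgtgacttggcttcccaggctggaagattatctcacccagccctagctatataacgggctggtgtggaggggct
Pdlim3 had 2 E-boxes and 2 MCAT elements, Tnnt2 had 3 and 1, Chrna1 had 3 E-boxes, and Ankrd1 had 1 E-box and 2 MCAT elements. Actc1, Myh3 and Casq2, whose differences were among the highest, had neither motif in this window.

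The 49 lists held 1437 tested genes, of which 95 rose and 16 fell. The plot of the lists sets each member beside the median of all genes. Outside muscle structure most lists lay within 0.5 of that median. The share that rose was 18.3% in the type I interferon response, 8.93% in DNA replication and 0 in cytosolic ribosomal proteins, against 1.57% of all genes tested. The share that fell was 11.1% among satellite cell genes and 0 in DNA replication, against 0.841% of all genes tested.

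**Figure D3:**
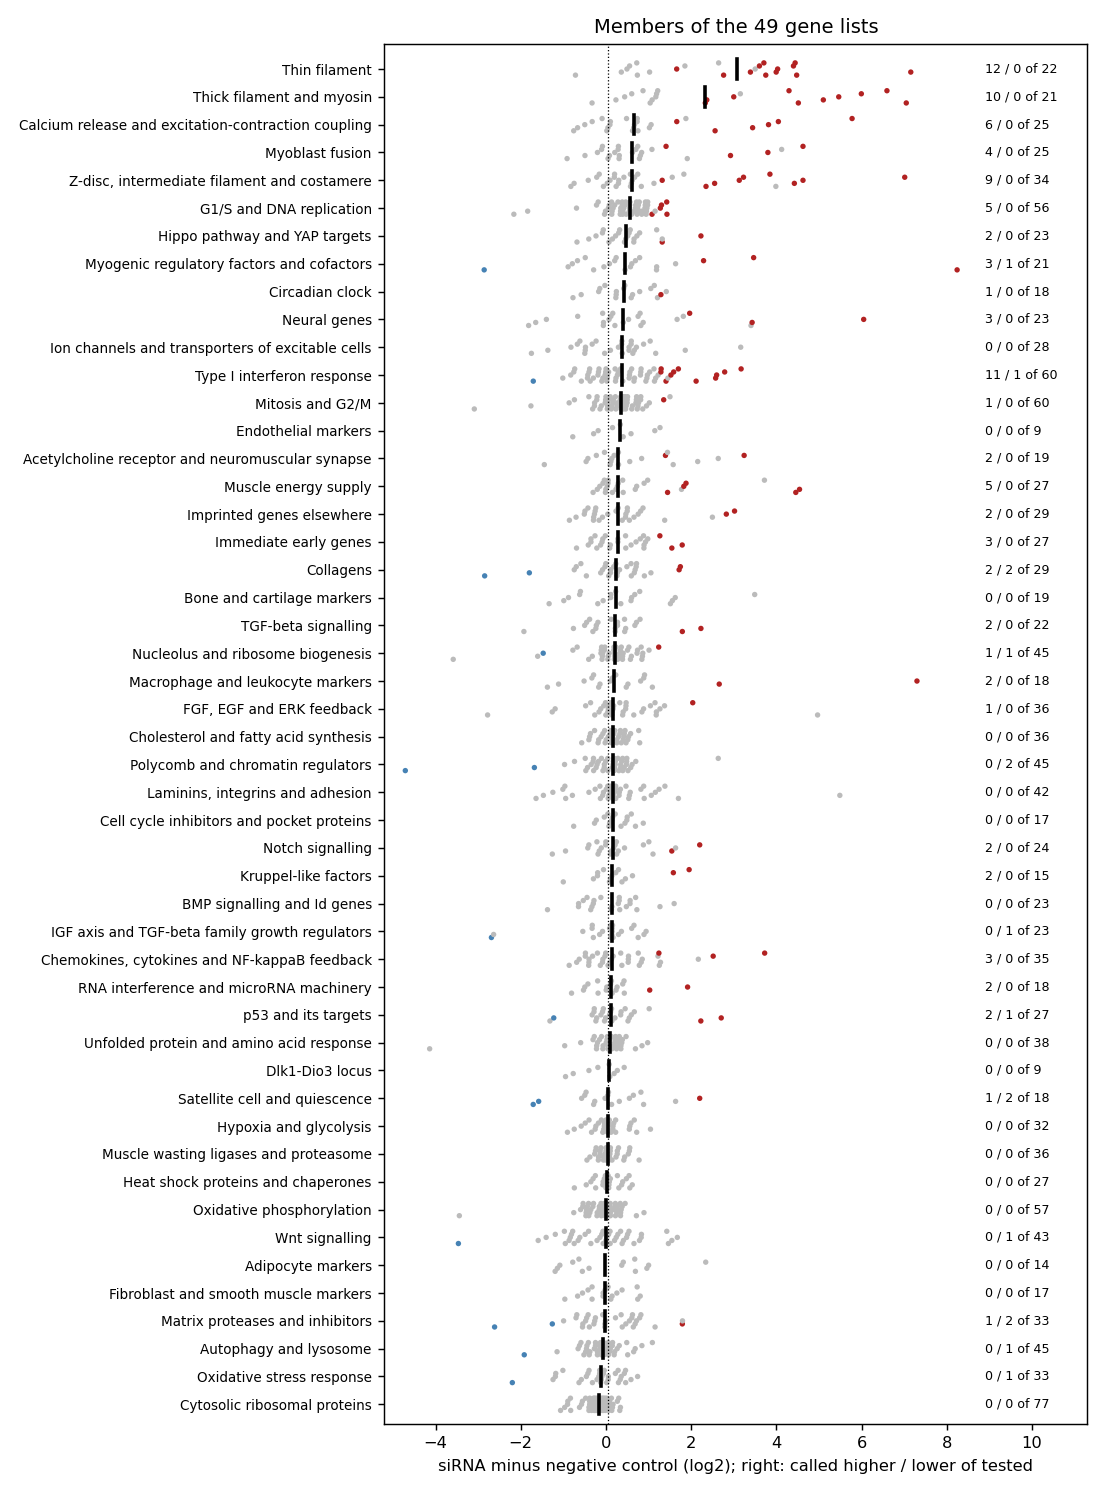
Difference between siRNA and negative control (log2) for each tested member of 49 gene lists, ordered by list median (black bars). Red members rose, blue members fell and grey members did not pass the test, the dotted line is the median of all genes (0.05), and the numbers give members called higher and lower of those tested; thin filament (median 3.08) and thick filament (2.33) genes stand at the top and cytosolic ribosomal proteins (-0.17) at the bottom.

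Genes of DNA replication were on the higher side, with a median of 0.55, and 5 of 56 tested members rose and 0 fell. At an unadjusted limma p under 0.05 there were 27 of the 56, 26 higher and 1 lower, against 4006 of all 22347 genes tested. Tyms, thymidylate synthase, rose by 1.43 ± 0.23 (adjusted p = 0.0469), and Mcm5, a subunit of the replicative helicase, by 1.43 ± 0.21 (adjusted p = 0.0346). Mcm10, which helps to start replication, was at -0.83, -0.63 and -0.24 on the negative control arrays and 0.82, 0.62 and 0.83 on the siRNA arrays, and Uhrf1, which maintains DNA methylation, at 1.32, 1.57 and 1.32 on the negative control arrays and 2.69, 2.76 and 2.67 on the siRNA arrays. Both rose, by 1.30 ± 0.19 (adjusted p = 0.0343) and 1.28 ± 0.17 (adjusted p = 0.0274). Mybl2, a cell cycle transcription factor, was the single called gene of 60 in mitosis and G2, with 1.35 ± 0.19 (adjusted p = 0.0292). The cyclins Ccnd1 and Ccnb1 and the kinase genes Cdk1 and Plk1 did not pass the test, with differences of -0.22, 0.12, -0.86 and -0.00. Outlying spots left out siRNA replicate 1 for Ccnb1 and replicates 1 and 3 for Cdk1, whose value rests on 1 siRNA array and whose other 2 probes gave -3.18 and 0.24. The cell cycle inhibitor Cdkn1a (p21), which stops division in differentiating myoblasts, did not pass the test either, with 0.59 ± 0.19 (adjusted p = 0.187). A second Cdkn1a probe gave -1.28, in the other direction. Of the 17 tested inhibitors and pocket proteins limma called 0, and 3 had an unadjusted p under 0.05. All 5 replication calls and Mybl2 lost their call without negative control replicate 2. Their adjusted p without siRNA replicate 2 was 0.0801 for Tyms, 0.0652 for Mcm5, 0.0579 for Mcm10, 0.0736 for Uhrf1 and 0.0637 for Mybl2.

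Outside muscle structure, the measured gene with the greatest rise was Alox5, arachidonate 5-lipoxygenase, which makes leukotrienes. Its levels were -6.16, -6.40 and -4.88 on the negative control arrays and 1.53, 1.16 and 1.52 on the siRNA arrays. Negative control replicate 3 stood above the other controls, far below the siRNA arrays, and the difference was 7.30 ± 0.41, or 157-fold (adjusted p = 0.00339). Ctsc, the lysosomal protease cathepsin C, was at -5.37, -5.41 and -5.74 on the negative control arrays and -0.95, -0.89 and -0.93 on the siRNA arrays, and rose by 4.56 ± 0.17 (adjusted p = 0.00209). Cd200, a membrane glycoprotein of the immunoglobulin family, rose by 5.30 ± 0.25 (adjusted p = 0.00433). Its spots were outlying on siRNA replicate 2, so its siRNA group was 1 sample, assumed to vary as the group did for other genes, and the SE and p hold no spread among siRNA samples of its own. Armcx4, an armadillo-repeat gene of the X chromosome, rose by 4.47 ± 0.22 (adjusted p = 0.00339). For genes not well above background on any negative control array only bounds can be given. Bace2, an aspartic protease, was at least 28.3-fold higher and Lrrn1, a leucine-rich repeat membrane protein, 14-fold. Tecrl, a reductase-like protein of heart and muscle, was at least 12-fold higher and Clca3b, a chloride channel accessory protein, 12.5-fold. The adjusted p of these 4 lay between 0.00368 and 0.0449, and that of Bace2 was 0.0741 without siRNA replicate 2.

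Among the genes that fell, had a reference symbol that is no numbered model, and were well above background on all 6 arrays, Serpinb1c dropped furthest. It is a serine protease inhibitor of the serpin family. Its levels were -0.49, -0.22 and -0.53 on the negative control arrays and -3.79, -3.74 and -3.81 on the siRNA arrays, and it fell by 3.41 on the log2 scale (SE 0.19, adjusted p = 0.00339). Ccn3, a matricellular protein that restrains myogenic differentiation, was at 2.43, 3.19 and 1.99 on the negative control arrays and -0.51, -0.58 and -0.58 on the siRNA arrays. The controls were spread widely, all of them above the siRNA arrays, and the difference was -3.26 ± 0.28 (adjusted p = 0.00957). Mmp3, stromelysin, a protease of the matrix, was at 1.86, 1.72 and 1.92 on the negative control arrays and -0.69, -0.91 and -0.74 on the siRNA arrays, a difference of -2.61 ± 0.18 (adjusted p = 0.00568). Col14a1, a collagen that coats fibrils, was at 0.61, 0.29 and 0.61 on the negative control arrays and -2.44, -2.35 and -2.44 on the siRNA arrays, with -2.85 ± 0.21 (adjusted p = 0.0067) and -1.18 on a second probe. Prg4, lubricin, differed by -2.91 ± 0.46 (adjusted p = 0.0423) and by -0.90 on a second probe, and Scara5, a ferritin receptor, by -2.26 ± 0.21 (adjusted p = 0.0109). Chchd10, a mitochondrial cristae protein, fell by 2.42 (SE 0.22, adjusted p = 0.0108), Car6, a secreted carbonic anhydrase, by 2.56 (SE 0.27, adjusted p = 0.014), and Uchl3, a ubiquitin hydrolase, by 2.30 (SE 0.24, adjusted p = 0.0135). Wdr19, of the ciliary transport complex, and Tsc22d2 had differences of -3.10 ± 0.47 (adjusted p = 0.0399) and -3.02 ± 0.47 (adjusted p = 0.041). Prg4, Wdr19 and Tsc22d2 had adjusted p of 0.0749, 0.0718 and 0.071 without siRNA replicate 2.

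**Figure D4:**
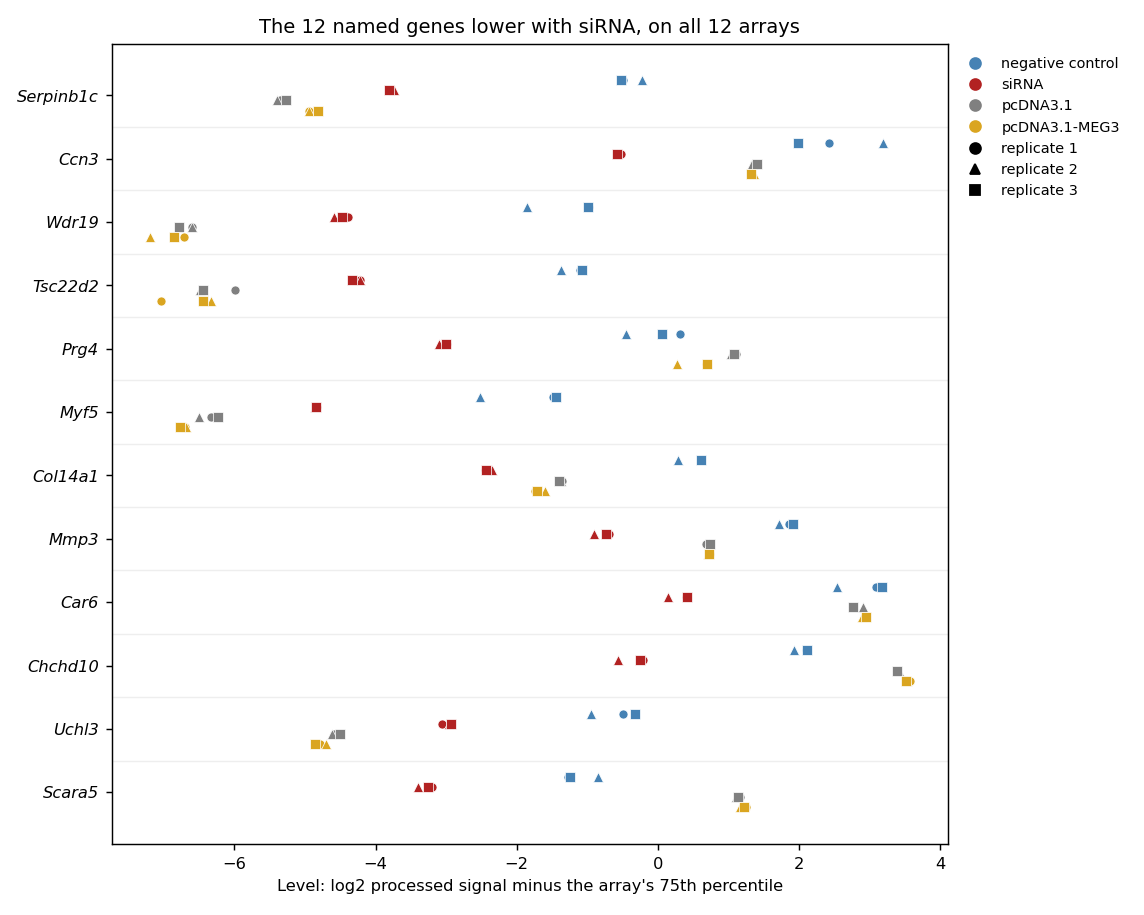
Levels (log2 signal relative to the array's 75th percentile) on all 12 arrays of the 12 genes with the largest measured falls; colours are the transfection groups and symbols replicates. The siRNA arrays lie below the negative control for all 12, whereas the plasmid groups lie below the siRNA arrays for Serpinb1c, Wdr19, Tsc22d2, Myf5 and Uchl3 and above them for the other 7.

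The plasmid groups, which were on a slide of their own, show on which side a group stood apart. For 311 of the 350 genes that rose (88.9%), all 3 siRNA arrays lay above all 9 other arrays, and for 184 (52.6%) all negative control arrays lay below all others, against 14.8% and 12.7% of all genes tested. A call already needs siRNA above 3 of those 9 arrays, so nothing is read from the gap to all genes. The mean of the plasmid groups was nearer to the negative control for 276 and nearer to siRNA for 74. For the 188 genes that fell the siRNA arrays lay below all others for 98 (52.1%), the negative control arrays above all others for 118 (62.8%), against 7.84% and 8.33% of all genes tested, and the plasmid mean was nearer to siRNA for 107. Chrnd, Myog and Myl1, with plasmid means of -1.01, -1.99 and -0.97 for pcDNA3.1, were among the genes whose plasmid levels were nearer the control.

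Cbx7 and Cbx8, subunits of Polycomb repressive complex 1, which reads the histone mark of complex 2, were the 2 genes that fell among 45 tested Polycomb and chromatin genes. Cbx7 was at -1.85, -2.42 and -2.30 on the negative control arrays and -7.34, -6.85 and -6.79 on the siRNA arrays, and was not well above background on any siRNA array. It was at least 15-fold lower (adjusted p = 0.00339). Cbx8 was at -0.85, -1.04 and -0.89 on the negative control arrays and -2.68, -2.58 and -2.70 on the siRNA arrays, a difference of -1.68 ± 0.18 (adjusted p = 0.0146). On the plasmid arrays both were low too, with means of -7.77 and -3.24 for pcDNA3.1. Ezh2 and Ezh1, the methyltransferases of complex 2, differed by 0.22 and -0.29 and did not pass the test, and a second Ezh1 probe gave 0.28. Both Cbx genes kept their call without siRNA replicate 2 and lost it without negative control replicate 2 and with the hybridisation as a random block. Other falls known as bounds were Rspo3, a Wnt agonist, at least 8.29-fold lower (adjusted p = 0.00899) and the single call among 43 tested Wnt genes, and Pdzrn4, 3.86-fold (adjusted p = 0.0181). Lrrfip2, Nrip2 and Vpreb2 were at least 3.64-fold, 2.23-fold and 2.02-fold lower. Of these, Nrip2 had an adjusted p of 0.062 and Vpreb2 of 0.0774 without siRNA replicate 2.

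Of the satellite cell genes, which mark quiescent muscle stem cells, 1 of 18 tested rose and 2 fell. Cd34, a surface sialomucin of such cells, was at 5.49, 4.92 and 5.53 on the negative control arrays and 3.59, 3.68 and 3.59 on the siRNA arrays. It fell by 1.58 (SE 0.22, adjusted p = 0.0292) while staying bright, and a second probe gave -2.08. Tenm4, a teneurin, differed by -1.71 ± 0.19 (adjusted p = 0.0164), and its second probe gave 0.72, in the other direction. Hey1, a Notch target, rose by 2.20 ± 0.27 (adjusted p = 0.0213), and the Notch ligand Dll1 by 1.54 ± 0.16 (adjusted p = 0.0135), as 2 of 24 tested Notch genes. Pax7, the stem cell factor, was well above background on 1 siRNA array, differed by -0.29 and did not pass the test. The adjusted p without siRNA replicate 2 was 0.063 for Cd34 and 0.0501 for Tenm4.

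The extracellular matrix moved in both directions. Of 29 tested collagens, 2 rose, Col5a3 by 1.75 ± 0.19 (adjusted p = 0.0148) and Col8a2 by 1.72 ± 0.26 (adjusted p = 0.0364; 0.83 on a second probe), and 2 fell, Col14a1 and Col11a1, the latter by 1.80 (SE 0.28, adjusted p = 0.0425). The bulk collagens Col1a1, Col3a1 and Col4a1 did not pass the test, with differences of 0.72, -0.02 and 0.66. Ccn2, connective tissue growth factor, a target of both TGF-beta and YAP, was at 1.23, 1.01 and 1.24 on the negative control arrays and 3.37, 3.34 and 3.35 on the siRNA arrays. It rose by 2.23 ± 0.18 (adjusted p = 0.00818), and was lowest on the plasmid arrays, at -0.91 and -0.997. Serpine2, an inhibitor of serine proteases, fell by 1.26 (SE 0.21, adjusted p = 0.0497). Ccn2 was 1 of the 2 genes that rose of 22 tested TGF-beta genes, and Ccn2 and Ankrd1 were the 2 of 23 in the Hippo pathway, where 0 fell in either. Of 33 tested matrix proteases and inhibitors 1 rose and 2 fell, the latter being Serpine2 and Mmp3. Igfbp4, which binds insulin-like growth factors, was at least 5.42-fold lower (adjusted p = 0.0408), well above background on 1 siRNA array, and was the single call among 23 genes of the insulin-like growth factor axis. Fgf1, a fibroblast growth factor, rose by 2.04 ± 0.32 (adjusted p = 0.0415) with -0.14 on a second probe, in the other direction, the single call among 36 genes of growth factor signalling. Col8a2, Col11a1, Serpine2 and Fgf1 had adjusted p of 0.0647, 0.0804, 0.0835 and 0.0677 without siRNA replicate 2.

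In the type I interferon response, a set of antiviral genes that foreign nucleic acid can induce, 11 of 60 tested genes rose and 1 fell, with a median of 0.37. Usp18, which removes the ubiquitin-like ISG15, was at -5.09, -5.60 and -5.15 on the negative control arrays and -2.59, -2.88 and -2.70 on the siRNA arrays. It rose by 2.60 ± 0.23 (adjusted p = 0.00971). Rsad2, viperin, and Oas2, which senses double-stranded RNA, were well above background on no negative control array and were at least 4.72-fold and 5.11-fold higher. Igtp, an interferon-induced GTPase, rose by 1.59 ± 0.16 (adjusted p = 0.0135). Isg15 and Ifit1, both commonly used to report this response, did not pass the test. Isg15 differed by 0.29 ± 0.21 (adjusted p = 0.564), with -0.73 on a second probe, in the other direction, and Ifit1 by 0.81 ± 0.27 (adjusted p = 0.198). All of these differences were small beside the plasmid arrays, where Usp18 stood at means of 1.71 and 1.88 and Rsad2 at -0.30 and -0.02. Ccl5, a chemokine, was the gene that fell, from 1.87, 1.25 and 1.89 to -0.12, -0.13 and -0.18, and it too was highest on the plasmid arrays. Without negative control replicate 2 the adjusted p of the 5 called genes named here lay between 0.0646 and 0.0977. Without siRNA replicate 2, 7 genes were called higher and Ccl5 had an adjusted p of 0.0619.

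**Figure D5:**
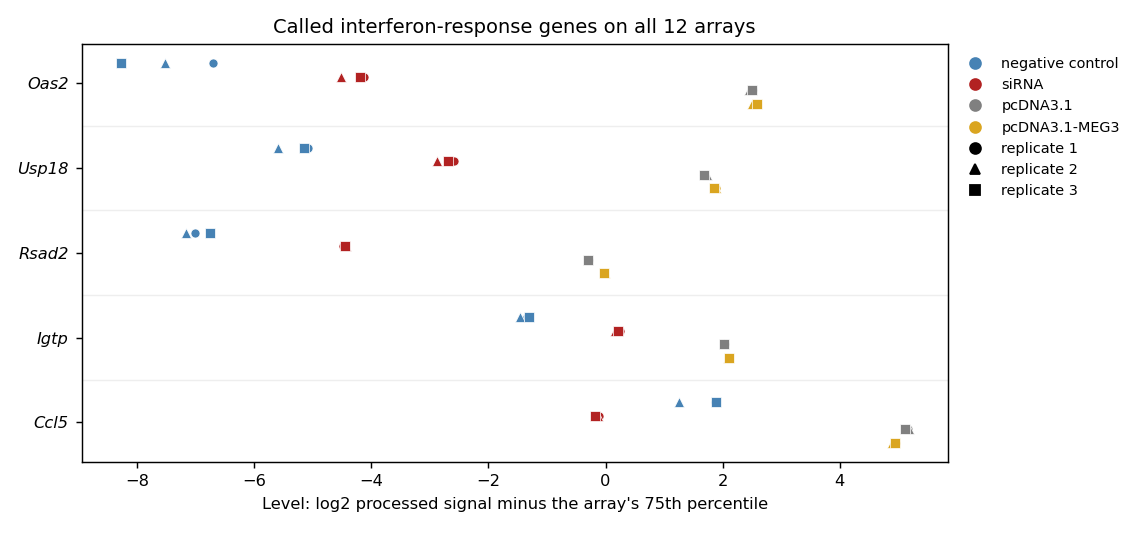
Levels (log2 signal relative to the array's 75th percentile) on all 12 arrays of the 5 called interferon-response genes named by rule; colours are the transfection groups and symbols replicates. With siRNA 4 lie above and Ccl5 below the negative control, and both plasmid groups lie above both for all 5.

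Among chemokines, cytokines and feedback genes of NF-kappaB 3 of 35 tested rose. Traf1, a signalling adaptor, was at -5.28, -5.66 and -5.34 on the negative control arrays and -1.52, -1.996 and -1.53 on the siRNA arrays, and rose by 3.72 ± 0.40 (adjusted p = 0.014). Il1b, interleukin 1 beta, was at least 4.29-fold higher (adjusted p = 0.0104), with no negative control array well above background. Ccl8 rose by 1.24 ± 0.18 (adjusted p = 0.036; adjusted p = 0.0807 without siRNA replicate 2). The widely used inflammatory genes Il6, Ccl2 and Cxcl1 did not pass the test, with 0.83, -0.40 and -0.86, the last on siRNA replicate 2 alone because its spots were outlying on the other two siRNA arrays.

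The lists that follow are short, so a few calls made a large share. Of p53 targets 7.41% rose and 3.7% fell, against 1.57% and 0.841% of all genes tested. The shares that rose were 11.1% for immediate early genes, 13.3% for Kruppel factors, 5.56% for clock genes and 11.1% for RNA interference genes. Of 27 tested p53 targets, Pmaip1 (NOXA) and Perp, which promote cell death, rose by 2.70 ± 0.18 (adjusted p = 0.00476) and 2.23 ± 0.22 (adjusted p = 0.0124), while the death effector Bax fell by 1.23 (SE 0.16, adjusted p = 0.0248). Trp53 itself differed by 0.52 and Mdm2, its ligase, by -0.12, and neither passed the test. Of 27 immediate early genes, which answer growth signals within minutes, Fos rose by 1.79 ± 0.17 (adjusted p = 0.0119), Atf3 by 1.55 ± 0.22 (adjusted p = 0.0332) and Egr2 by 1.26 ± 0.17 (adjusted p = 0.028). Klf5 and Klf2, zinc-finger factors of the Kruppel family, rose by 1.95 ± 0.32 (adjusted p = 0.0466) and 1.58 ± 0.19 (adjusted p = 0.0186). The clock gene Per2 rose by 1.29 ± 0.20 (adjusted p = 0.0387), as 1 of 18. Without siRNA replicate 2, Bax, Atf3, Egr2, Klf5, Klf2 and Per2 had adjusted p of 0.0722, 0.07, 0.0676, 0.0736, 0.0501 and 0.0807. In the machinery of RNA interference, which an siRNA uses, Ago4, an Argonaute, rose by 1.92 ± 0.30 (adjusted p = 0.0407), and Lin28a, which binds let-7 precursors, by 1.03 ± 0.17 (adjusted p = 0.0489), as 2 of 18. Their adjusted p without siRNA replicate 2 was 0.0715 and 0.0989. Ago2, the slicing Argonaute, Dicer1 and Drosha did not pass the test, with 0.43, 0.24 and -0.81.

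The 77 cytosolic ribosomal protein genes had the lowest list median, -0.17, and ran from -1.07 to 0.34, with 0 called by limma and 4 at an unadjusted p under 0.05. Ncl, nucleolin, a nucleolar protein, fell by 1.47 (SE 0.16, adjusted p = 0.0148; -0.25 on a second probe) and Polr1b, a subunit of RNA polymerase I, rose by 1.24 ± 0.16 (adjusted p = 0.0246; adjusted p = 0.0643 without siRNA replicate 2), as 2 of 45 nucleolar genes. In the oxidative stress response (median -0.11) Gsta4, a glutathione transferase, was at 0.11, 0.47 and 0.10 on the negative control arrays and -1.87, -1.93 and -1.92 on the siRNA arrays. It fell by 2.20 (SE 0.18, adjusted p = 0.00899), 1 of 33. In autophagy and the lysosome (median -0.07) Wipi1, an autophagosome protein, fell by 1.92 (SE 0.25, adjusted p = 0.025; -0.75 on a second probe), 1 of 45, and had an adjusted p of 0.0549 without siRNA replicate 2. The limma test also called 0 of 57 oxidative phosphorylation genes, 0 of 38 of the unfolded protein response, 0 of 36 of cholesterol and fatty acid synthesis and 0 of 36 of muscle wasting and the proteasome, where 3, 5, 3 and 2 had an unadjusted p under 0.05. It called 0 of 32 hypoxia and glycolysis genes, 0 of 27 heat shock proteins and 0 of 23 BMP and Id genes. It also called 0 of 28 channels and transporters and 0 of 42 laminins, integrins and adhesion genes. In that order 7, 2, 6, 6 and 15 had an unadjusted p under 0.05, against 4006 of all 22347 genes tested. The share was above that of all genes for adhesion genes (10 higher, 5 lower). For oxidative phosphorylation and heat shock genes it was below.

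The neighbours of Meg3 were measured for 9 of 14 listed genes of the Dlk1-Dio3 locus, with differences from -0.95 to 0.43. Of these 0 were called by limma and 0 had an unadjusted p under 0.05, against 4006 of all 22347 genes tested. Dlk1, the paternally expressed Notch-like protein, had the lowest, -0.95 ± 1.50 (adjusted p = 0.842), and was well above background on 3 negative control arrays and 1 siRNA array. Mirg, a noncoding RNA of the same maternal strand as Meg3, differed by -0.77 and did not pass the test. Of 29 tested imprinted genes elsewhere, Zim1 was at least 2.87-fold higher (adjusted p = 0.0237) and Ddc rose by 2.82 ± 0.35 (adjusted p = 0.02; 0.35 on a second probe), while Igf2 and Cdkn1c did not pass, with 0.76 and 0.50.

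Markers of the labelled cell type were present. All 8 myoblast markers were well above background on all 6 arrays, and of 8 markers of differentiated muscle 7 were. So were 6 of 9 fibroblast and smooth muscle, 3 of 6 adipocyte, 4 of 7 bone and cartilage and 3 of 6 endothelial markers. Summed linear levels on the negative control arrays were 54.8 to 63.1 for myoblast and 156 to 237 for fibroblast and smooth muscle markers. On the siRNA arrays these sums were 95.8 to 99.9 and 190 to 203. Presence was thus not particular to muscle markers. The lists of other cell types gave 0 calls by limma of 17 fibroblast and smooth muscle, 14 adipocyte, 19 bone and cartilage and 9 endothelial genes. In that order 2, 5, 5 and 1 had an unadjusted p under 0.05, against 4006 of all 22347 genes tested. Of 18 macrophage and leukocyte genes 2 rose, Alox5 and Mrc1, the mannose receptor, by 2.66 ± 0.30 (adjusted p = 0.016). The 6 markers that define those cells, among them Ptprc, Adgre1, Csf1r, Itgam and Cd3e, were not among the calls, though 5 of them were well above background on all 6 arrays. Their summed linear levels were 1.57 to 2.20 on the negative control arrays and 1.32 to 1.80 on the siRNA arrays, and Ptprc, the pan-leukocyte marker, was at -5.49, -6.19 and -5.35 on the negative control arrays and -6.63, -5.49 and -6.78 on the siRNA arrays. The part of such cells in these rises was not tested. Of 23 tested neural genes 3 rose and 0 fell, and all 3 were among the 8 chosen as markers of neural cells, of which 5 were well above background on all 6 arrays. Nefl, neurofilament light chain, was at least 50.6-fold higher (adjusted p = 0.0144), Map2, a microtubule-associated protein, rose by 3.43 ± 0.42 (adjusted p = 0.0203), and Tubb3, a tubulin, by 1.96 ± 0.20 (adjusted p = 0.0137). The summed neural level was 2.85 to 4.79 on the negative control arrays and 1.66 to 4.26 on the siRNA arrays. The 1.66 belongs to siRNA replicate 2, where Stmn2, the brightest of these markers, was left out as outlying. Stmn2 was at 1.40 and 1.34 on siRNA replicates 1 and 3, so that low end reflects a missing marker. Stmn2 (without siRNA replicate 2) and Snap25 differed by -0.06 and -1.65 without passing the test.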

How the data were processed

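The deposited scanner files hold linear spot intensities. Per the file headers, Feature Extraction 11.0.1.1 (Agilent) subtracted background and a spatial trend without normalising between arrays; other columns flag spots as outlying, saturated or well above background. The authors also deposited 1 table of processed intensities for the whole series, with column medians of 276 to 277, and the sources used here do not say how that scale was set. Of the 44397 spots on an array, the 1377 controls were left out, and 0 were saturated. Outlying spots were left out, spots of a probe averaged, and the log2 of the signal scaled by the array's 75th percentile. Probe accessions matched a RefSeq symbol for 27234 of 39429 probes; other genes kept the files' names, and 132 called genes are numbered models or have no symbol. Of the called genes, 85 had another kept probe, which went the other way for 13. The number of arrays limits the precision.

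Averaging replicates 1 and 3 in every group left 8 samples in 1 limma fit (version 3.58.1 under R 4.3.3, with version 1.17.8 of the data.table package) by lmFit and eBayes, with 4 degrees of freedom from residuals and 1.74 from the prior, and a variance factor per group from arrayWeights. Plasmid replicates 1 and 2 also differed by about the spot noise (1.02 and 0.955 times) and stayed separate, which is an uneven treatment. For a bound, the mean log2 level of the brighter group was set against that of the dimmer one, whose arrays were each raised, where lower, to the dimmest signal that any probe well above background had there. Same-numbered arrays of the groups did not deviate together (correlations -0.034, -0.042 and -0.032), so numbers did not pair samples.

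Named by rule were the 12 highest and 12 lowest called genes measured on all 6 arrays, the 6 highest and 6 lowest bounds, 3 key genes a list, and up to 4 called members a list in each direction; 49 lists held 1619 genes. Some genes that meet this rule are not reported here. Alternatives were the sample definition, the spread, background correction, scaling, filter, probe choice, the authors' values and each replicate left out. Normexp used median signals, since mean signals are not in the files used here. The comparison, its members and the lists were chosen with earlier results of these data known.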

Additional observations from a re-analysis of the deposited data

How the results depend on the processing

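The count of 538 calls, and that of 111 called list members, followed the definition of samples and spread more than the scaling. With 12 arrays as 12 samples there were 5625 and 512, with negative control replicates 1 and 3 as 2 samples 3073 and 330, with 1 shared spread 3465 and 349, with the hybridisation as a random block 899 (157 list members; 408 of the 538), with both groups alone 331 (76), and with both groups alone and variance factors, chosen after seeing the data, 200 and 62. The replicate numbers do not pair the samples; a replicate block over the 6 arrays gave 3171 and 312 calls. Median centring gave 916, no filter on dim probes 346, and local background subtracted with 50 added, chosen after seeing the data, 253 and 68. Normexp gave 0 and 0 calls, and the cause was not tested. Its background estimate was negative on 3 arrays (-904, -796 and -1006 against 7.31 to 13.9). Under it 59 of the 538 genes changed direction, among those named Rspo3 (0.26), Pdzrn4 (1.08), Lrrfip2 (1.12), Nrip2 (1.38), Vpreb2 (1.42) and Igfbp4 (0.42). Leaving out replicates gave 9 to 525 calls and 7 to 110 list members, lowest without negative control replicate 2; both averaged scans left out gave 50 for the negative control and 217 for siRNA. The median of all genes was 0.54 with normexp, 0.16 with local background, -0.13 with median centring and 0.15 without negative control replicates 1 and 3. Apart from normexp and the local background (1 gene), none of the 538 genes changed direction in any alternative. Meg3 had no kept probe, so nothing was recomputed for it. Signal over background limits the 68 rises and 36 falls where a group was not well above it on all its arrays.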

Other observations

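Among called genes outside the lists, chosen here after their values were seen, the greatest fitted difference was that of Tspan7, a tetraspanin of the cell surface, at 8.39 ± 0.77 (log2 ± SE, limma adjusted p = 0.0108). The negative control was well above background on 1 of its 3 arrays, and the rise was at least 299-fold. Of the other called genes, 5 known from skeletal muscle were picked as examples, without a list or a test behind them. Rbm24, an RNA-binding protein that steers muscle splicing, was at least 30.0-fold higher (adjusted p = 0.0143). Srpk3, a muscle kinase of splicing factors, was at least 8.79-fold higher (adjusted p = 0.017) and Art1, a muscle ADP-ribosyltransferase, at least 9.58-fold (adjusted p = 0.0119). Trim72, which helps to reseal the muscle membrane, rose by 3.33 ± 0.37 (adjusted p = 0.0147) and Fndc5, the precursor of irisin, by 4.04 ± 0.67 (adjusted p = 0.0477).

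The serpin B family moved in both directions: of 19 tested members 6 rose and 2 fell. In the Serpinb9 group, intracellular inhibitors related to the granzyme B inhibitor, 4 of 6 tested members rose. Serpinb9g rose by 3.04 ± 0.18 (adjusted p = 0.00355), Serpinb9e by 3.12 ± 0.25 (adjusted p = 0.00839), Serpinb9f by 2.99 ± 0.22 (adjusted p = 0.00678) and Serpinb9c by 2.31 ± 0.27 (adjusted p = 0.0173). Serpinb9 itself differed by -0.44 and did not pass the test (adjusted p = 0.521). These genes are close copies of each other, and whether their probes bind more than 1 transcript was not tested. Serpinb1c and Serpinb6d were the members that fell, by 3.41 and 2.10 on the log2 scale.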
